A study of Xenopus laevis with 8 samples.

Results

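The genes described here encode the actins, the myosins, the troponins and tropomyosins of the thin filament, and a set of proteins that nucleate, cap, sever or cross-link actin filaments. They were chosen by name from the array annotation: symbols of actins, alpha-actinins, actin-related proteins, Arp2/3 subunits, myosin heavy and light chains, unconventional myosins, tropomyosins, troponins, cofilins, profilins, capping proteins, and the Shroom, diaphanous, WAVE, ezrin-radixin-moesin and villin families. No probe set with 1 symbol matched diaphanous, ezrin or moesin. This gave 104 of the 15491 non-control probe sets, for 76 symbols of 61 genes, since *X. laevis* is an allotetraploid whose homoeologous gene copies end in .L and .S. Classed by gene name, 38 probe sets were muscle forms, 60 were non-muscle forms, and 6 were tropomyosins, whose genes give both. The classes are approximate: *cfl2*, the muscle cofilin in mammals, and *myl9* were put with the non-muscle forms. The smooth muscle actin *acta2* was put with the muscle forms.

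Actin is present in every cell as the cytoplasmic beta and gamma forms, and striated muscle adds its own actins, myosins and the calcium-sensing troponins. Non-muscle myosin II pulls on actin filaments that alpha-actinin bundles and that the Arp2/3 complex, under WAVE proteins, branches. Profilin supplies actin monomers for growth, cofilin severs old filaments, and capping protein stops their ends. In the neural plate, actomyosin at the apical side of the cells, which some Shroom proteins can place there, constricts and bends the sheet.

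RNA came from animal caps, pieces of ectoderm cut from the blastula that left alone form epidermis, and was read on 4 arrays of EFTF caps and 4 arrays of GFP caps. Embryos were injected at the 2-cell stage, caps were cut at stage 9, and RNA was extracted at the equivalent of stage 15. EFTF caps carried RNA for the eye field transcription factors *pax6*, *tbx3*, *rx1*, *nr2e1*, *six3* and *six6* with *otx2*. GFP caps are the injected controls. By the methods of the study the fluorescent protein was Venus YFP, its RNA was injected in both groups, the donor embryos of both carried a Venus YFP transgene, and several caps were pooled for each RNA. The labels call the arrays biological replicates, 4 in each group. The methods instead describe work in triplicate, on embryos from different days and females, and the sources used here do not tie an array to a day or a female. The n of 4 therefore counts arrays, and the p-values measure the spread between them. The comparison asks which members of the actomyosin system differ in level when caps are driven by the eye field factors. Values are log2 RMA intensities and each change is EFTF minus GFP.

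Background was set by 17 tag controls that match no frog transcript, and a probe set counted as read where it exceeded the highest of them on its array, a limit of 2.90 to 3.18. Between 72.4% and 83.4% of all probe sets were above it on an array. GFP replicate 1 has a GFP title but an EFTF source label. It read *otx2.L* at 6.30, against 9.21 to 9.73 on the EFTF arrays and 5.53 to 6.06 on the other GFP arrays, although over all probe sets it correlated best with EFTF replicate 1 (0.983). EFTF replicate 1 in turn correlated more with it than with the other EFTF arrays (0.943 to 0.976). With GFP replicates 2 and 3, EFTF replicate 1 correlated by 0.967 and 0.969. GFP replicate 1 was kept as GFP, and results that depend on it are given without it as well. Muscle was checked with 33 probe sets of 20 muscle and mesoderm genes. The 6 probe sets of the myogenic regulators *myod1*, *myf5*, *myf6* and *myog* averaged 2.57 to 3.23 in EFTF and 2.61 to 3.24 in GFP caps. Those of *myod1.L*, *myf6.L* and *myog.S* were below background on all 8 arrays, while *myod1.S* was above it on 4 EFTF and 3 GFP arrays, *myf5.L* on 2 and 4, and *myog.L* on 2 and 1. Away from background, 1 of 3 probe sets of muscle creatine kinase, *ckm.L*, averaged 8.53 ± 1.08 on EFTF arrays and 10.11 ± 0.43 on GFP arrays (SD, n = 4, limma adjusted p = 0.157). The others lay near background, with means of 3.24 and 3.29 on EFTF arrays and 3.40 and 3.69 on GFP arrays, so the probe sets of this gene do not read alike.

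Most of the non-muscle actin and myosin machinery was read in both groups, muscle forms were mostly near background, and few members passed the test. The single call of the unpaired limma fit was *actn4.S*, an alpha-actinin that cross-links actin filaments outside muscle, which fell by 0.82 on the log2 scale. Called members were thus 0 higher and 1 lower among 104, against 220 of 15491 probe sets, or 1.42%, over the whole array in either direction. At an unadjusted p under 0.05 there were 16 members, while 17.3% of all probe sets reached it, a larger share than that of the members. The non-muscle forms taken alone had 12 of 60, a slightly larger share than that of the array and close to it. Members were also less often read, with 16.3% of them above background on no array, against 7.70% of all probe sets. This did not hold for the non-muscle forms, of which 3.33% were above background on no array. Deviations from the group means correlated by 0.22 to 0.64 for arrays of equal replicate number and by -0.45 to 0.28 for the others. With the replicate number as a block limma called 7 members. These were 3 higher (*shroom1.L*, *pfn2.L* and *actr1a.L*, where 4.91% of all probe sets were called higher) and 4 lower (*actn4.S*, *myo6.L*, *myo1c.L* and *tnni2.S*, where 5.25% were called lower). As shares of 104, the members' counts were below these shares of the array. Of the 60 non-muscle forms, 3 were called higher and 3 lower with the block, close to the shares of the array. Without the replicate pair that holds the array of mixed labels, the blocked fit called 8 members, the same 7 and *tnni1.2.L*, and 11.8% of all probe sets, again a larger share than that of the members.

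The median change of the members was -0.04, against 0.02 over all probe sets. Muscle forms had a median of -0.04, non-muscle forms of -0.05 and tropomyosins of -0.06. Over members above background on all 8 arrays the median was -0.15, against 0.04 over all probe sets read this way. By form it was -0.17 for 9 muscle, -0.10 for 48 non-muscle and -0.37 for 3 tropomyosin probe sets. These medians were not tested. Of the 60 members above background on all 8 arrays, 47 differed in mean by less than 0.5 on the log2 scale, 7 by 0.5 to 1, and 6 by more than 1. The groups did not overlap for 3 members with higher EFTF values (5.42% of all probe sets) and 6 with lower EFTF values (4.75%).

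**Figure D1:**
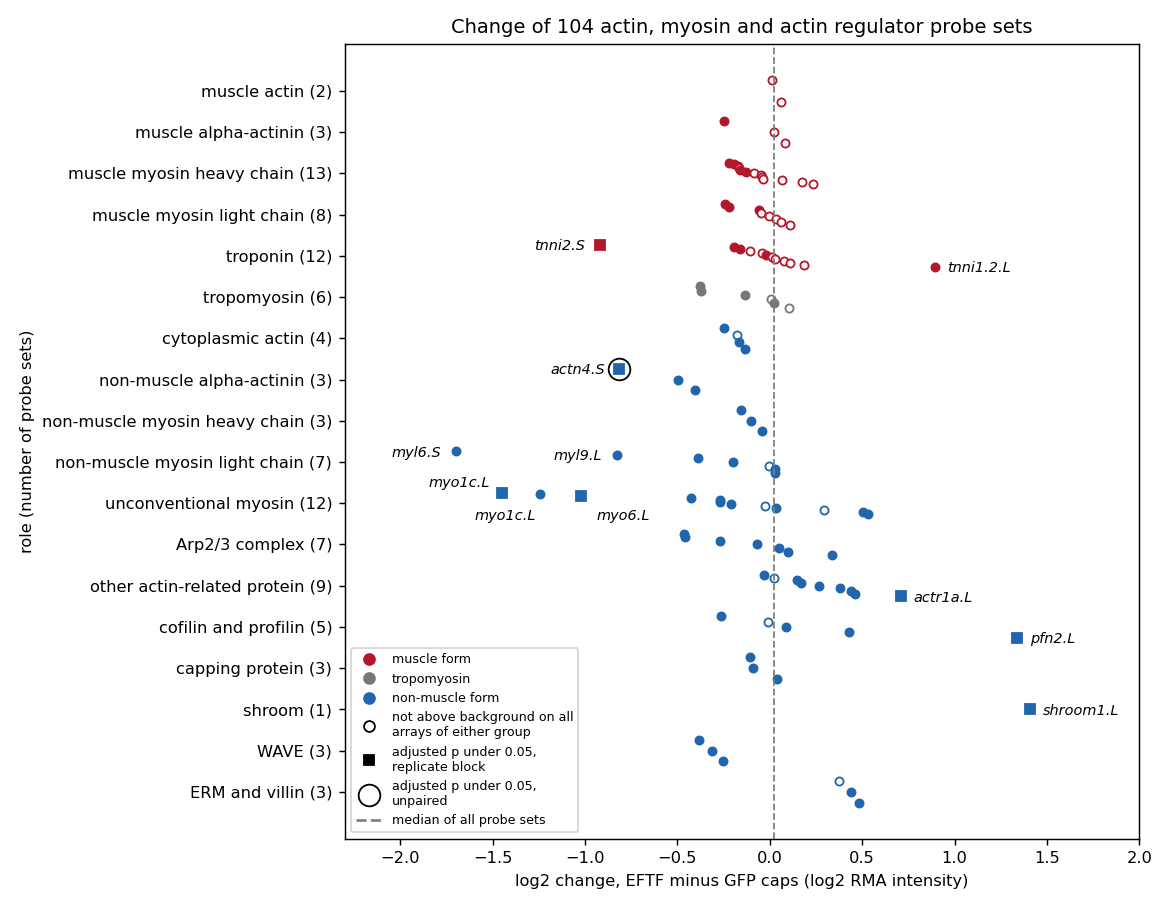
The log2 change (EFTF minus GFP) of each of the 104 member probe sets is plotted by role, with the number of probe sets in parentheses. Only *actn4.S* passed the unpaired test, 7 probe sets passed with the replicate block, and most others lie near the median of all probe sets at 0.02.

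Markers of several ectodermal cell types differed between the groups. Neural markers were called higher in EFTF caps in 16 of 29 probe sets and cement gland markers in 5 of 6, while ionocyte markers were called lower in 2 of 8 (6 with the replicate block) and multiciliated cell markers in 0 of 8 (7 with the block, 6 at an unadjusted p under 0.05). The neural list names *otx2*, *pax6* and *rax* (*rx1*), whose RNAs were injected into EFTF caps. The paper states that the probe sets it used for these genes do not detect the injected RNA. Whether this holds for every probe set of the list was not tested. Of 17 epidermal probe sets, 16 had a lower mean in EFTF caps, with none called by the unpaired fit (5 at an unadjusted p under 0.05) and 1 called lower with the block. Summed linear intensities were 4929 to 9556 on EFTF and 755 to 1626 on GFP arrays for the neural list, and 21821 to 30659 on EFTF and 31189 to 35471 on GFP arrays for the epidermal list. In such samples fewer cells of a type and less RNA per cell cannot be told apart, and the part of these cell types in the members' changes was not tested.

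Cytoplasmic actin was the brightest member. *actb.L*, which encodes beta-actin, read 11.87, 11.74, 11.77 and 11.58 on EFTF arrays 1 to 4 and 12.02, 11.86, 12.01 and 11.60 on GFP arrays 1 to 4. Each EFTF array was below the GFP array of its number, but the groups overlapped and the change of -0.13 ± 0.13 (SE) did not pass the test (limma adjusted p = 0.685, and 0.431 with the replicate block). A second *actb.L* probe set gave -0.17, and another, above background on 1 EFTF and 3 GFP arrays, gave -0.18. *actg1.L*, which encodes gamma-actin, differed by -0.25 ± 0.16 (adjusted p = 0.521). The 3 beta-actin control probe sets of the array differed by -0.44 (3′ end), -0.21 (middle) and -0.44 (5′ end). The 3′ minus the 5′ value, a sign of RNA quality, was -0.77 to -0.42 on EFTF and -1.08 to -0.04 on GFP arrays. For the *Gapd* controls of the array the 3′ minus the 5′ value was 2.13 to 2.82 on EFTF and 1.99 to 2.82 on GFP arrays. These *Gapd* probe sets differed between the groups by -0.83 (3′ end), -0.68 (middle) and -0.76 (5′ end).

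Alpha-actinins join actin filaments into bundles and anchor them at junctions and, in muscle, at the Z disc. *actn4.S* read 7.63, 7.80, 7.32 and 7.45 in EFTF caps and 8.31, 8.34, 8.31 and 8.51 in GFP caps. All 4 EFTF arrays were below all 4 GFP arrays, and EFTF caps averaged 7.55 ± 0.21 and GFP caps 8.37 ± 0.09 (SD, n = 4). The 1.76-fold lower level, a change of -0.82 ± 0.13 (SE), passed the test (limma adjusted p = 0.0315, and 0.0267 with the replicate block). The call was lost without any 1 of EFTF replicates 3 and 4 and GFP replicates 1 to 4, with adjusted p-values of 0.0579 (without GFP replicate 1) to 0.111 (without GFP replicate 2) and changes of -0.83 to -0.74. The other non-muscle members were also lower on average. *actn1.L* differed by -0.50 ± 0.29 (adjusted p = 0.460) and *actn1.S* by -0.40 ± 0.23 (adjusted p = 0.427), and the lowest value of both genes was in EFTF replicate 3.

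Non-muscle myosin II consists of heavy chains, regulatory light chains and essential light chains. Its heavy chain *myh9.L* read 9.18, 9.50, 8.97 and 9.26 in EFTF and 9.28, 9.36, 9.55 and 9.13 in GFP caps, with an EFTF mean of 9.23 ± 0.22 and a GFP mean of 9.33 ± 0.17 (SD, n = 4). The groups overlapped throughout (adjusted p = 0.810), and the 2 *myh10.S* probe sets differed by -0.16 and -0.04. *myl6.S*, the essential light chain, read 6.98, 6.88, 5.10 and 5.31 in EFTF and 7.62, 7.47, 8.12 and 7.86 in GFP caps. This was the largest mean difference of any member, -1.70 ± 0.45, and the groups did not overlap. EFTF arrays 3 and 4 lay more than 1 log2 unit below the other EFTF arrays, and neither fit called it (limma adjusted p = 0.104, and 0.0719 with the replicate block). Without EFTF replicate 1 its adjusted p was 0.0470. Leaving aside the blocked fit on replicates 2 to 4, its range over the alternatives was 0.0470 to 0.261.

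The regulatory light chain *myl9* spread widely over the arrays of a group. *myl9.L* read 7.38, 8.60, 7.12 and 5.50 in EFTF and 7.13, 8.62, 8.73 and 7.43 in GFP caps, a change of -0.83 ± 0.65 (adjusted p = 0.605). *myl9.S* had its highest value, 6.78, in EFTF replicate 2 and its lowest, 3.34, in EFTF replicate 1. Of the 4 *myl12b.L* probe sets, the brightest differed by -0.39 ± 0.18 (adjusted p = 0.329), and the other 3 differed by at most 0.03.

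Unconventional myosins work singly or in pairs as cargo carriers and membrane tethers. *myo6.L*, known for walking toward the pointed end of the filament and for its work in endocytosis, read 5.85, 6.53, 5.54 and 5.59 in EFTF and 6.51, 7.51, 7.16 and 6.43 in GFP caps. Every EFTF array was below the GFP array of its number, although the groups overlapped at EFTF replicate 2. The change of -1.02 ± 0.31, or 2.03-fold lower, passed with the replicate block but not unpaired (limma adjusted p = 0.139 unpaired and 0.0292 with the block).

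*myo1c*, a single-headed myosin that links membranes to cortical actin, did not read alike on its probe sets. One *myo1c.L* probe set read 5.56, 6.83, 3.87 and 4.70 in EFTF and 6.37, 7.48, 5.92 and 6.97 in GFP caps. It was lower in all 4 pairs, with differences of -2.27 to -0.65, and passed with the block but not unpaired (change -1.45 ± 0.62, adjusted p = 0.281 unpaired and 0.0437 with the block). The other 3 *myo1c.L* probe sets differed by -1.25, -0.27 and -0.02, the last of them below background on all 8 arrays. The 3 *myo1c.S* probe sets gave 0.53, 0.51 and -0.43, none called. For 1 of the *myo1c.L* probe sets, at -0.27, the groups did not overlap. Which copy each probe set hybridises to was not tested. The remaining unconventional myosins, *myo10.2.S*, *myo1a.L*, *myo1e.2.L* and *myo5a.L*, lay between -0.27 and 0.29 with no call.

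Shroom proteins bind actin, and *shroom1.L* was the single member of its family matched here. It read 6.09, 6.86, 7.62 and 6.51 in EFTF and 5.55, 5.45, 5.48 and 4.98 in GFP caps. All EFTF arrays were above all GFP arrays. It was 2.65-fold higher, a change of 1.41 ± 0.31, with an adjusted p of 0.0671 in the unpaired limma fit and 0.0308 with the replicate block. Without EFTF replicate 1, the lowest of the EFTF arrays, the unpaired adjusted p was 0.0277, in a range of 0.0277 to 0.196 over all alternatives. Whether *shroom1* acts on apical actomyosin in these caps was not tested.

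Profilin loads actin monomers for assembly, and profilin 2 is the form abundant in the mammalian brain. *pfn2.L* read 5.97, 6.82, 6.72 and 8.02 in EFTF and 5.58, 5.58, 5.16 and 5.85 in GFP caps. The groups did not overlap, and EFTF replicate 4 was the highest. Its change of 1.34 ± 0.39, or 2.53-fold, passed with the block but not unpaired (limma adjusted p = 0.130 unpaired and 0.0415 with the block). Without EFTF replicate 1 the unpaired adjusted p was 0.0419. Over the alternatives, leaving aside the blocked fit on replicates 2 to 4, the adjusted p of *pfn2.L* ran from 0.0415 to 0.303. *pfn1.S*, the common profilin, was brighter in both groups and read 8.49, 9.54, 9.32 and 8.33 in EFTF and 8.88, 9.55, 9.39 and 8.93 in GFP caps, a change of -0.27 ± 0.30 (adjusted p = 0.751). *cfl1.L* and *cfl1.S*, which encode the non-muscle cofilin, differed by 0.09 and 0.43, and *cfl2.L*, the muscle cofilin in mammals, was below background on all 8 arrays.

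**Figure D2:**
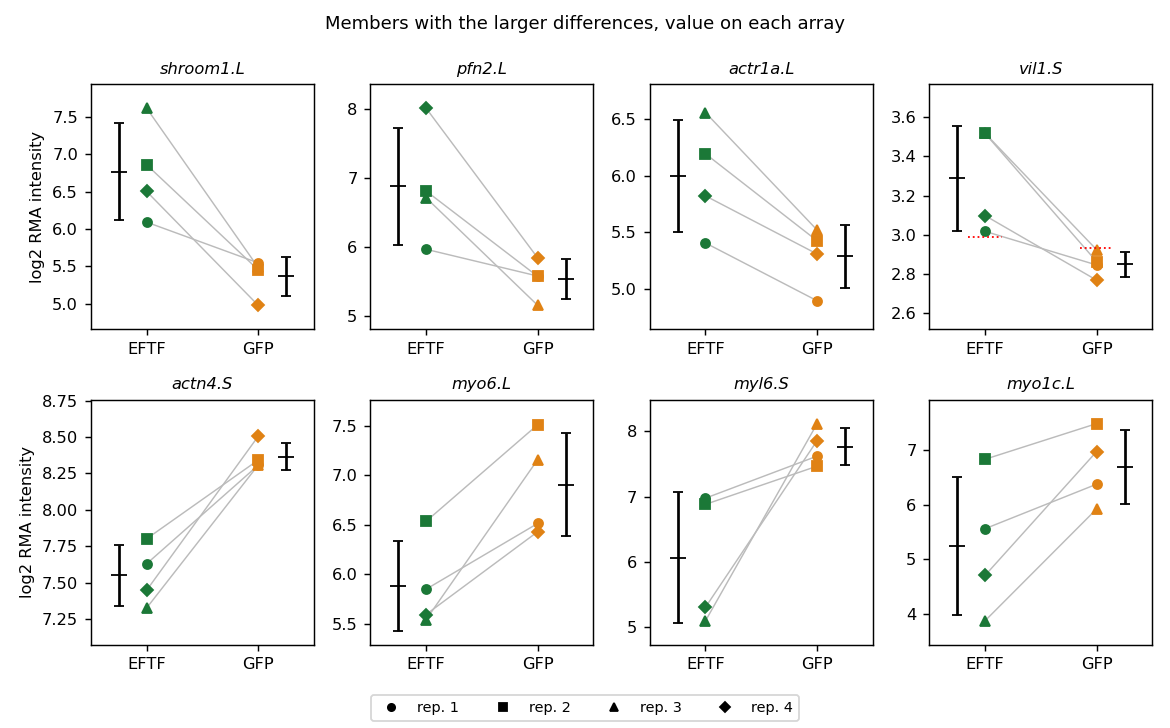
Log2 RMA intensity of 8 probe sets on EFTF arrays (left) and GFP arrays (right); symbols mark the replicate number, grey lines join equal numbers, bars beside the points are the mean ± SD of 4 arrays, and red dotted lines are the mean background limit of each group. Every line of *shroom1.L*, *pfn2.L*, *actr1a.L* and *vil1.S* falls to the right and every line of the lower row climbs, with groups that overlap for *actr1a.L*, *myo6.L* and *myo1c.L*.

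The Arp2/3 complex starts new branches on existing filaments. None of its 7 probe sets was called by either fit, and none had an unadjusted p under 0.05. *arpc4.S*, the brightest, read 10.03, 10.75, 10.65 and 10.47 in EFTF and 9.81, 10.51, 10.70 and 10.47 in GFP caps, with a change of 0.10 ± 0.23 (adjusted p = 0.893). Replicate 1 was the lowest array of both groups. *arpc5.L* had the lowest change, -0.47 ± 0.33 (adjusted p = 0.551), and 1 of 2 *arpc1a.S* probe sets the highest, 0.33 ± 0.19 (adjusted p = 0.442). The other *arpc1a.S* probe set was brighter and gave 0.05 ± 0.17. The WAVE proteins that activate the complex were lower on average in all 3 probe sets, with none called: *wasf2.L* differed by -0.31 ± 0.14 (adjusted p = 0.314), and *wasf1.S* by -0.38 ± 0.25 (adjusted p = 0.517). The *wasf2.L* groups did not overlap but all but touched, with a highest EFTF value of 6.7777 and a lowest GFP value of 6.7779.

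Capping protein gave 3 probe sets whose groups overlapped. *capza1.L*, its alpha subunit, read 9.79, 9.53, 9.78 and 9.78 in EFTF and 9.62, 9.83, 9.81 and 9.48 in GFP caps. EFTF caps averaged 9.72 ± 0.13 and GFP caps 9.68 ± 0.17 (SD, n = 4, limma adjusted p = 0.928). *capza2.L* and the beta subunit *capzb.S* differed by -0.11 and -0.09.

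Several actin-related proteins carry the name but have other work. *actr1a.L* encodes Arp1, which forms the short filament of dynactin, the adaptor of the dynein motor on microtubules. Its called probe set read 5.40, 6.19, 6.56 and 5.82 in EFTF and 4.89, 5.42, 5.52 and 5.31 in GFP caps. Each EFTF array was above the GFP array of its number by 0.51 to 1.04, and the groups overlapped at EFTF replicate 1. The change of 0.71 ± 0.26 passed with the block but not unpaired (limma adjusted p = 0.202 unpaired and 0.0308 with the block), while the other 3 probe sets gave 0.46, 0.44 and 0.02. The other dynactin member, *actr10*, differed by -0.03 (*actr10.L*) and 0.38 (*actr10.S*). *actr5.S*, *actr6.L* and *actr8.S*, which belong to chromatin remodelling complexes, differed by 0.27, 0.15 and 0.17 with none called.

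Radixin ties the membrane to cortical actin, and villin bundles actin in microvilli. *rdx.S* differed by 0.48 ± 0.20 (adjusted p = 0.254). *vil1.S*, chosen after its values were seen, read 3.02, 3.52, 3.52 and 3.10 in EFTF and 2.84, 2.86, 2.92 and 2.77 in GFP caps on 1 of its 2 probe sets. It was above background on all 4 EFTF and on 0 GFP arrays. Its EFTF mean was 1.28-fold above the background limit averaged over the GFP arrays, a ratio of means given without an error. The difference between the groups did not pass (limma adjusted p = 0.165, and 0.0727 with the replicate block), and the second probe set was above background on 2 EFTF and 0 GFP arrays.

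**Figure D3:**
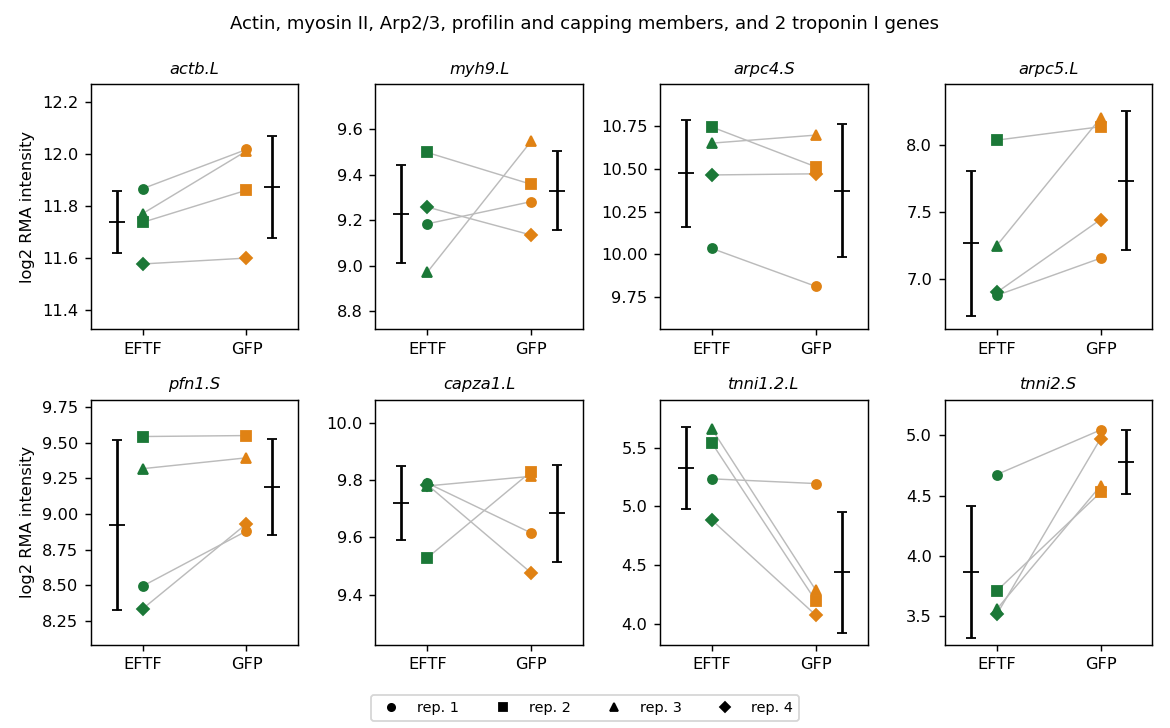
Log2 RMA intensity of 8 probe sets on EFTF arrays (left) and GFP arrays (right), drawn with the replicate symbols, joining lines and mean ± SD bars (n = 4) used for the members with larger differences. The actin, myosin, Arp2/3, profilin and capping probe sets overlap between groups, and of the 2 troponin I probe sets *tnni1.2.L* is higher on average in EFTF caps and *tnni2.S* lower.

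Most muscle forms were read at or near background, and a few troponin I and myosin heavy chain probe sets were clearly above it. Of the 38 probe sets, 9 were above background on all 8 arrays and 13 on none, against 48 and 2 of the 60 non-muscle probe sets. None was called by the unpaired fit (3 at an unadjusted p under 0.05, where 17.3% of all probe sets were) and 1, *tnni2.S*, lower with the replicate block (5.25% of all probe sets). As shares of 38 these counts were below those of the array. The skeletal and smooth muscle actins *acta1.S* and *acta2.L* were below background on all 8 arrays, between 2.45 and 2.89. The muscle-actin control probe sets of the array lay between 2.43 and 3.61. Those of the 5′ end were above background on 4 arrays (a1Act) and 6 arrays (a3Act). The a3Act 3′ probe set was above background on 1 array and the others on 0.

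The muscle probe sets that were read belong to few genes. *myh6.S*, a cardiac myosin heavy chain in mammals, on its brightest probe set averaged 4.75 ± 0.37 in EFTF caps and 4.94 ± 0.34 in GFP caps (SD, n = 4 arrays) and did not pass (adjusted p = 0.766), and its other 4 probe sets lay between -0.09 and 0.23. The 3 *myh8.L* probe sets were above background on all 8 arrays and differed by -0.22 to -0.16. Of the 8 muscle light chain members none was above background on all 8 arrays. A probe set annotated to both *myl3* copies, not a member, was above it on all 8 (-0.38 ± 0.21, adjusted p = 0.426). The groups did not overlap for *myl3.S* (-0.24 ± 0.13, adjusted p = 0.397) and for *actn2.L*, the muscle alpha-actinin (-0.25 ± 0.10, adjusted p = 0.249), each above background on 2 EFTF and 4 GFP arrays.

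Troponin I, the inhibitory subunit, gave the only muscle values that differed by over 0.5. *tnni2.S*, the fast skeletal form, read 4.67, 3.71, 3.55 and 3.51 in EFTF and 5.05, 4.53, 4.58 and 4.97 in GFP caps. EFTF replicate 1 stood apart from the other EFTF arrays and reached into the GFP range. The change of -0.92 ± 0.27, or 1.89-fold lower, passed with the replicate block (limma adjusted p = 0.134 unpaired and 0.0381 with the block). Without EFTF replicate 1 the unpaired adjusted p was 0.0155. Its range over the alternatives, leaving aside the blocked fit on replicates 2 to 4, was 0.0155 to 0.337. A second *tnni2.S* probe set differed by -0.19. The muscle and mesoderm marker list had 0 unpaired calls among its 33 probe sets (3 at an unadjusted p under 0.05) and 2 lower with the block, both of *hspb7.L*, a small heat shock protein of muscle. Its summed linear intensity was 1519 to 2596 on EFTF and 2755 to 3496 on GFP arrays, but 1 *ckm.L* and 2 *pax3.L* probe sets made up 84.3% to 90.4% of it on EFTF and 89.3% to 92.2% on GFP arrays, and *pax3* is also a gene of the neural plate border. The other 30 probe sets summed to 239 to 275 on EFTF and 259 to 320.0 on GFP arrays. The part of muscle-like cells in the *tnni2.S* values was not tested.

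*tnni1.2.L*, a slow skeletal troponin I by its name, went the other way. It read 5.23, 5.54, 5.66 and 4.88 in EFTF and 5.19, 4.19, 4.28 and 4.07 in GFP caps. GFP replicate 1, the array of mixed labels, read like the EFTF arrays. The change of 0.89 ± 0.28 passed neither fit (limma adjusted p = 0.147, and 0.0710 with the replicate block), and without the pair of replicate 1 arrays the blocked fit called it. The *tnni1.S* probe set, above background on 3 EFTF and 4 GFP arrays, averaged 3.34 in EFTF and 3.36 in GFP caps. Its change was -0.02 ± 0.22 (limma adjusted p = 0.981). Troponin C and T genes showed no call. Of them only *tnnt3.S* was above background on all 8 arrays, with a mean of 3.97 in EFTF and 4.13 in GFP caps.

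Tropomyosins lie along the actin filament and set which proteins reach it. Among the members *tpm3.S* was the brightest and read 7.48, 7.72, 7.75 and 7.42 in EFTF and 7.78, 8.23, 8.27 and 7.60 in GFP caps. Each EFTF array was below the GFP array of its number, and the change of -0.38 ± 0.18 passed neither fit (limma adjusted p = 0.329, and 0.0776 with the replicate block). *tpm3.L* gave -0.37 ± 0.13 (adjusted p = 0.190), *tpm1.L* 0.02 ± 0.22 (adjusted p = 0.980), and both *tpm2* copies were below background on all 8 arrays. A probe set annotated to both *tpm4* copies, not a member, was brighter, with means of 7.78 in EFTF and 8.38 in GFP caps. Its groups did not overlap, and its change of -0.60 ± 0.20 passed neither fit (limma adjusted p = 0.170, and 0.117 with the replicate block).

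**Figure D4:**
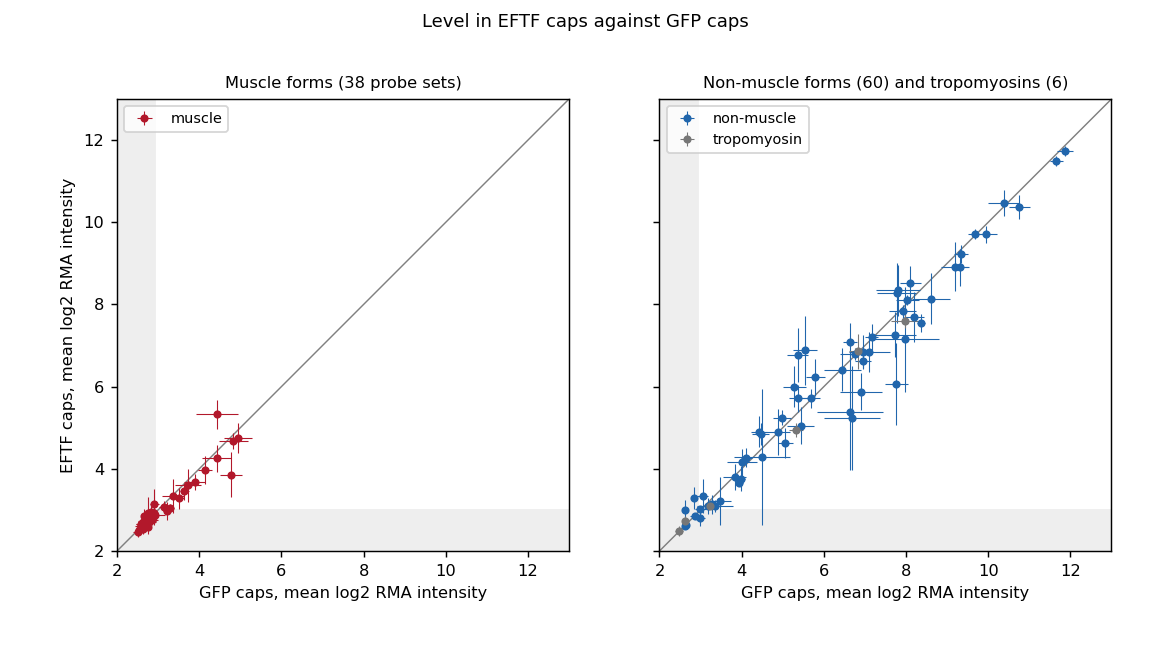
Mean log2 RMA intensity in EFTF caps (vertical) against GFP caps (horizontal) for 38 muscle probe sets (left) and for 60 non-muscle and 6 tropomyosin probe sets (right). Bars are the SD of 4 arrays, the grey bands lie below the mean background limit, and the line marks equal levels: muscle forms crowd at the limit, and non-muscle forms spread along the line up to *actb.L*.

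The upstream and accessory regulators of actin, a list of 105 gene names of which 62 were measured with 98 probe sets, gave 0 unpaired calls, with 13 probe sets at an unadjusted p under 0.05 (17.3% of all probe sets). With the replicate block limma called 3 higher and 1 lower (4.91% and 5.25% of all probe sets), each a smaller share than on the whole array, and the median change was -0.04. Those higher included *cttn.L*, cortactin, which steadies branches (0.60 ± 0.19, limma adjusted p = 0.152 unpaired and 0.0276 with the block), and 1 of 2 *ppp1cb.L* probe sets, a catalytic subunit of myosin phosphatase (0.61 ± 0.36, adjusted p = 0.458 and 0.0331). The one lower was *wdr1.S*, a partner of cofilin in taking filaments apart (-0.85 ± 0.23, adjusted p = 0.104 and 0.0285).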

How the data were processed

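Affymetrix *X. laevis* GeneChips of 4 EFTF and 4 GFP cap RNAs were compared. The authors preprocessed the scans with RMA, for which the processing notes give no version, and deposited intensity on a linear scale, which was converted to log2 with no offset and not normalized again. The methods add a scaling step in GeneSpring, and the sources used here do not say whether these values include it. RMA compresses low values, so changes of dim probe sets are understated.

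Of 15611 probe sets, 120 controls were left out. An annotation table of the array gave 1 symbol for 9304 of the rest, several for 195 and none for 5992. The gene IDs of all 104 members were in a RefSeq table of the species and 0 symbols were updated. A further 4 probe sets with several symbols, at least 1 of them fitting the rule, were not counted as members. Of these, 0 were called (log2 changes -0.60 to -0.07, lowest adjusted p = 0.170, and 0.117 with the block). Those of *tpm4* and *myl3* are given beside the members. Probe sets ending in _x_at or _s_at can read related transcripts, and the .L and .S copies may not be separated. Sequences and genome positions were not used here.

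A two-sided limma model (version 3.58.1, run in R 4.3.3) compared the groups with lmFit and eBayes and no covariates. Its p-values were adjusted by Benjamini-Hochberg over 15491 probe sets, and 0.05 was the threshold. Titles give both groups replicate numbers 1 to 4. Deviations of equal-numbered arrays from their group means correlated by 0.44, 0.60, 0.22 and 0.64, and those of unequal-numbered arrays by -0.45 to 0.28. GFP replicate 3 correlated more with EFTF replicate 2 (0.28) than with EFTF replicate 3 (0.22). The pairing rests on these correlations and on the numbers in the titles, which no source ties to a day or a female. The fit with the replicate block is given beside the unpaired one where it changes a call. On simulated data of 15491 probe sets the unpaired fit called 36 of 100 log2 changes of 1 and 69 of 100 of 2, with 4 false calls. The changes were added only to probe sets brighter than the median, and the arrays were simulated as independent. These rates therefore do not cover dim members or arrays that deviate together. Precision is limited by the number of arrays, with a median SE of 0.22 for the change among members above background on all 8 arrays.

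Members, classes and lists were chosen with earlier results of these data known. Values are given for every member called by either fit and, in each role, for the brightest probe set and the largest change in each direction among members above background on all arrays of a group. Others are given by counts and ranges or, in a few cases, as further probe sets or copies of these genes and as members whose groups do not overlap. The alternatives tried were the replicate block, other normalizations, a filter on dim probe sets, 16 added before log2, an intensity trend, an equal-variance test and leaving out arrays. The blocked fit on replicates 2 to 4 was added after seeing the data. One regulator called with the block is not reported here.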

Additional observations from a re-analysis of the deposited data

Results flagged for a closer look

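Among the 36 named probe sets, 5 of 72 groups of 4 arrays had 1 array far from the other 3, which chance gives in about 1 in 20 groups. In *shroom1.L* the lowest GFP value, 4.98 in replicate 4, stood below the other GFP arrays. In *tnni2.S* the highest EFTF value, 4.67 in replicate 1, stood above the other EFTF arrays. In *tpm1.L* the lowest EFTF value was 6.23 in replicate 4, and in *capza1.L* it was 9.53 in replicate 2. In *acta1.S*, below background throughout, the highest GFP value was 2.85 in replicate 4.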

How the results depend on the processing

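The count of 1 called member (*actn4.S*) was 7 with the replicate block and 8 with the block on replicates 2 to 4 only. It was 0 with the equal-variance test, 0 with an intensity trend and 0 with replicates 1 to 3 only, and 0 to 6 when 1 array was left out. The 6 calls came without EFTF replicate 1 (*actn4.S*, *tnni2.S*, *vil1.S*, *pfn2.L*, *myl6.S* and *shroom1.L*). The share of all probe sets called without that array is not given here, so this count is not a result about the members. The count was 0 without any 1 of EFTF replicates 3 and 4 and of the GFP arrays. It stayed at *actn4.S* alone with equal array medians, quantile normalization, the filter on dim probe sets and 16 added before log2. The adjusted p of *actn4.S* ran from 0.0196 to 0.117 over its alternatives, leaving aside the blocked fit on replicates 2 to 4. The muscle median of -0.04 was -0.16 over the 17 probe sets above background on at least 4 arrays, -0.11 with equal array medians and -0.08 to 0.004 with 1 array left out. The non-muscle median of -0.05 was -0.12 with equal array medians and -0.09 to -0.04 with 1 array left out. Equal array medians put the median of all probe sets at -0.05 instead of 0.02. Of 575 values of named probe sets under the alternatives, 535 kept direction and side of the threshold, 10 passed anew, 9 no longer passed and 21 changed sign. The blocked fit on replicates 2 to 4 is not among these values. Signs turned for probe sets with mean changes near 0. With equal array medians *tpm1.L* was at -0.047, *acta1.S* at -0.010, *capza1.L* at -0.031 and *myl12b.L* at -0.041. With quantile normalization *myl12b.L* was at -0.023, and with replicates 1 to 3 only *capza1.L* was at -0.054 and *myl12b.L* at -0.14. With 1 array left out *tpm1.L* ran from -0.079 to 0.23, *arpc4.S* from -0.087 to 0.25, *capza1.L* from -0.032 to 0.10, *capza2.L* from -0.23 to 0.049, *myl12b.L* from -0.16 to 0.28 and *actr10.L* from -0.18 to 0.073. The causes were not tested. Except for those given beside the results, the block changed no other call among the members.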
